A study of Mus musculus with 15 samples.

Results

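The matrix metalloproteinases (Mmp), the disintegrin metalloproteinases (Adam), their secreted relatives with thrombospondin repeats (Adamts), the ADAMTS-like proteins (Adamtsl) and the tissue inhibitors of metalloproteinases (Timp) were followed in RNA-Seq libraries of NMuMG cells, a line of normal mouse mammary gland epithelial cells, and of lines derived from it. Members were taken by gene name alone, and 54 of the 15701 genes in 2 datasets matched, 41 of 13893 in the first dataset, 52 of 15023 in the second and 39 in both. The first dataset held 4 shPCBP1 lines, NMuMG cells in which a lentiviral shRNA under puromycin selection knocks down PCBP1. These were the unaltered line and the control (CT) clones 1 to 3, which were treated with Cas9 but no gene-specific guide RNA. The same dataset held 3 clones with FAM3C knocked out by CRISPR-Cas9 (FAM3C KO), 3 with LIFR knocked out (LIFR KO) and 1 line with both knocked out (double KO). All of the knockouts carried the PCBP1 knockdown as well. Each line or clone gave 1 library, and the knockout lines were grown from single colonies, so the spread within a group includes differences between clones. The second dataset, which was older, held 2 libraries of NMuMG and 2 of NMuMG shPCBP1. The labels give the NMuMG libraries no treatment, while the text of the study speaks of shSCR cells, which carry a scrambled shRNA. No label says that these came from separate cultures, so their p-values measure only the spread between libraries, which may be technical.

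MMPs are zinc-dependent proteases that cut collagens, laminins, proteoglycans and cell surface proteins, and most are made as inactive precursors. MMP14 sits in the cell membrane and, together with TIMP2, takes part in the activation of pro-MMP2, while TIMPs bind and inhibit active MMPs. ADAM10 and ADAM17 shed the outer parts of membrane proteins such as Notch receptors and growth factor precursors, and ADAMTS proteases cut proteoglycans, procollagens and other matrix proteins. In mammary epithelium these proteases are known for their part in branching, involution and the invasion of tumour cells.

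Values are CPM, that is, read counts scaled by library size. Depth, inferred from the lowest values, came to between 16000000 and 46900000 reads per library in the first dataset and between 52800000 and 56200000 in the second, so that 3 reads, the upper limit that a count of 0 allows, stood for 0.0640 to 0.187 CPM and for 0.0534 to 0.0569 CPM. These limits cover counting error only. Pcbp1 was at 287 and 312 CPM in NMuMG and at 14.1 and 14.2 CPM in shPCBP1 of the second dataset. In the first it was at 32.9 to 39.5 CPM in shPCBP1, FAM3C KO and LIFR KO clone 1. It was lower, at 22.5, 19.9 and 20.6 CPM, in LIFR KO clones 2 and 3 and the double KO, and the part of this in the results was not tested. Fam3c was at 26.4, 33.9 and 42.9 CPM in FAM3C KO, below the 47.0 to 59.4 CPM of shPCBP1, whereas the LIFR KO clones 1 to 3 had 34.9, 29.3 and 14.6 CPM of Lifr, of which the first 2 lay within the 25.8 to 40.2 CPM of shPCBP1, and the double KO had 42.3 CPM of Fam3c and 4.36 CPM of Lifr. An excision within the coding sequence need not lower the transcript, so these levels do not check the labels. Of the 6 epithelial markers, the keratin genes Krt8 and Krt18 were at 218 CPM or more and Krt19 and Cdh1 at 148.6 CPM or more in every library. Cldn7 was at 0.107 to 0.525 CPM in the first dataset and not listed in the second, and Epcam was listed in neither. The 7 mesenchymal markers summed to 535 CPM or more in every library, while the endothelial markers summed to at most 2.00 CPM. Of the 3 leukocyte markers, Cd14 was at 83.8 to 166 CPM and Cd68 at 1.06 to 10.8 CPM over all libraries, and Ptprc, listed in the second dataset only, was at most at 0.0355 CPM. Summed, they came to 148 to 169 CPM in shPCBP1, 123 to 170 CPM in FAM3C KO and 95.0 to 177 CPM in LIFR KO of the first dataset, and to 93.0 to 94.3 CPM in NMuMG and 85.4 to 87.8 CPM in shPCBP1 of the second, and their part in the results was not tested. The double KO library and those of LIFR KO clones 2 and 3 stood apart. Across 12603 genes, Spearman's rho of the log2 difference from shPCBP1 (its mean) with GC content was -0.702 in the double KO and -0.757 and -0.744 in the clones, against -0.286 to 0.240 in the other 8, and 7.16% to 8.58% of their summed CPM came from mitochondrial genes, against 3.14% to 4.06%.

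In the 4 shPCBP1 lines the inhibitor gene Timp2 had the highest level of the members once transcript length was taken into account, with a mean of 94.0 CPM per kb. The sheddase genes Adam10 at 23.3 and Adam9 at 20.3 CPM per kb came next, and their ranges over the lines touched. Mmp14 at 15.3 and Adam17 at 14.9 CPM per kb followed and overlapped, as did Timp1 at 12.5 and Adam15 at 11.4 CPM per kb. Mmp2 stood at 1.87 CPM per kb between Adamts6 at 2.15 and Adamts15 at 1.83 CPM per kb, from which it did not differ beyond its spread. At the low end Adam19, Mmp17, Adamts14 and Adamts5 had means of 0.0848, 0.0844, 0.0233 and 0.0181 CPM per kb. Of the 41 members, 23 reached at least 1 CPM in each of the 11 libraries.

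**Figure D1:**
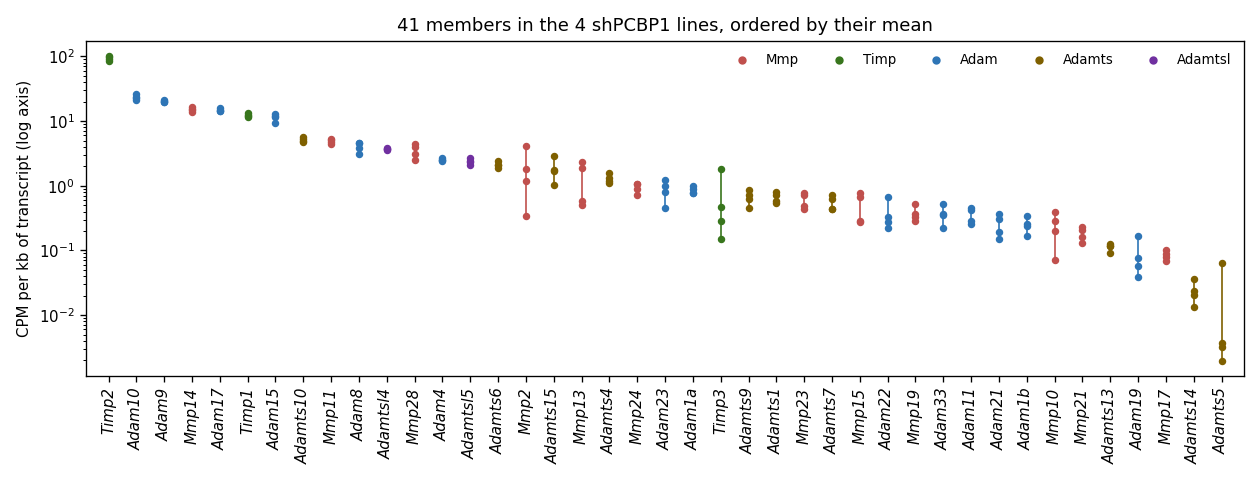
Level of each of the 41 members of the first dataset in the 4 shPCBP1 lines, in CPM per kb of the longest annotated transcript on a log axis, with members ordered by their mean. Timp2 leads at a mean of 94.0 CPM per kb, and the lines are widest apart for Mmp2 and Timp3 among the members tested.

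The 4 shPCBP1 lines differed among themselves more in these genes than in most. The median difference between the highest and the lowest line was 0.60 on the log2 scale over the 35 members tested and 0.29 over all 12621 genes tested, although members also had lower levels, with a median of 6.82 CPM against 26.4 CPM. It was widest for Mmp2 at 3.47, Timp3 at 3.42 and Mmp13 at 2.13 on the log2 scale. Mmp13, a collagenase gene, was at 1.56 CPM in the unaltered line and at 5.03, 1.33 and 6.18 CPM in the CT clones. Timp3, whose product is held in the matrix and also inhibits ADAM17, was at 2.18 CPM in the unaltered line and at 1.36, 8.54 and 0.708 CPM in the CT clones. Mmp13 was high in clones 1 and 3 and Timp3 in clone 2, so the lines did not keep one order across these genes.

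To ask which members depend on FAM3C, an interleukin-like secreted protein, the 3 FAM3C KO clones were compared with the 4 shPCBP1 lines. Mmp2, the gene of gelatinase A, fell and was the only member past the threshold. Mmp2 (chromosome 8, 92827291 to 92853420 in GRCm38) measured 3.62 CPM in the unaltered line and 1.07, 5.54 and 12.8 CPM in the 3 CT clones. The FAM3C KO clones 1 to 3 had 0.0886, 0.440 and 0.0384 CPM, the last of which is that library's value for no reads. The LIFR KO clones had 0.376, 0.541 and 0.686 CPM, and the double KO had 0.0468 CPM, again the value for no reads. All 6 clones lay below the lowest shPCBP1 line, although the shPCBP1 lines spread widely, at 5.77 ± 5.06 CPM (SD, n = 4). On the log2(CPM + 0.1) scale, used for every fold change here, the log2 fold change was -4.13 with a standard error of 0.727 in FAM3C KO and -2.76 with 0.727 in LIFR KO (adjusted p = 0.0662 and 0.0616 from limma), and both comparisons use the same 4 shPCBP1 lines. An exact two-sided permutation test gave p = 0.0571 in each, the smallest that 4 lines against 3 clones allow. In bulk RNA, fewer cells that express a gene and less of its RNA per cell cannot be told apart.

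The threshold was an adjusted p under 0.07. In FAM3C KO, 0.309% of all genes tested passed it and 0.222% passed it with a lower level, and 1 of the 35 members tested did. No member passed without CT clone 2, CT clone 3, the unaltered line or any one FAM3C KO clone (0 members, with 3 to 6 at an unadjusted p under 0.05 in limma), and Mmp14 passed as well without LIFR KO clone 1, which shares the fit. Of all genes, 4 to 27 passed in the former settings and 243 in the latter, against 39 with every library. Over its alternatives the log2 fold change of Mmp2 lay between -4.74 and -2.20 and its adjusted p between 0.0229 and 0.244 in limma. Members were also counted whose FAM3C KO clones all lay on the same side of every shPCBP1 line. They were 8 of the 35, against 22.7% of all genes, 6 of them with higher values (10.1% of all genes) and 2 with lower values (12.5%). The lower ones were Mmp2 and Mmp14, and the higher ones Adam4, Adam23, Adamts4, Adamts7, Mmp19 and Mmp23, none of which passed the threshold (adjusted p from 0.254 to 0.568 in limma). The median log2 fold change was 0.06 over the members and -0.01 over all genes.

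Mmp19, the gene of a secreted protease of basement membrane proteins, was at 1.77 CPM in the unaltered line, at 1.22, 0.966 and 1.13 CPM in the CT clones, at 2.33, 2.23 and 2.74 CPM in FAM3C KO and at 0.796, 1.26 and 1.64 CPM in LIFR KO. Mmp23, a membrane-bound member, was at 0.686 CPM in the unaltered line, at 0.618, 1.09 and 1.03 CPM in the CT clones, at 2.17, 1.68 and 1.58 CPM in FAM3C KO and at 1.13, 0.458 and 0.943 CPM in LIFR KO. Adam23, the gene of a catalytically inactive ADAM that acts in cell adhesion, was at 7.80 CPM in the unaltered line, at 6.40, 2.91 and 5.22 CPM in the CT clones, at 8.15, 21.1 and 11.2 CPM in FAM3C KO and at 5.69, 3.04 and 18.4 CPM in LIFR KO. Each stood higher in every FAM3C KO clone than in every shPCBP1 line, with log2 fold changes of 0.91, 1.02 and 1.23, although the lowest FAM3C KO clone for Adam23 was close to the highest shPCBP1 line. With FAM3C KO and shPCBP1 fitted without LIFR KO, 5 members passed the threshold, Mmp2 and Mmp14 with lower and Adamts4, Mmp19 and Mmp23 with higher levels, against 1048 of all genes.

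Adam4, another member of the ADAM family, was at 6.36 CPM in the unaltered line, at 6.35, 5.98 and 6.84 CPM in the CT clones, at 6.91, 8.999 and 7.34 CPM in FAM3C KO and at 7.13, 8.69 and 7.93 CPM in LIFR KO. All clones of both knockouts were above every shPCBP1 line, by log2 fold changes of 0.27 and 0.30 that did not pass the threshold (adjusted p = 0.568 and 0.147 from limma).

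The comparison of the 3 LIFR KO clones with the same 4 shPCBP1 lines asks which members depend on LIFR, the receptor of leukemia inhibitory factor. In it 7 of the 35 members passed the threshold, against 6.47% of all genes, and all 7 were lower in LIFR KO, against 5.55%. They were Mmp2, the membrane-type protease genes Mmp14 and Mmp24, Mmp28 (epilysin), the inhibitor gene Timp2, Adamts7 (a protease of cartilage oligomeric matrix protein) and Adamtsl4 (a microfibril-associated protein without a protease domain). By family, 4 of 10 Mmp genes fell, as did 1 of 3 Timp, 1 of 7 Adamts and 1 of 2 Adamtsl genes, while 0 of 13 Adam genes passed in limma, with 1 of them, Adam15, under 0.05 before adjustment. The median log2 fold change was -0.84 over the 10 Mmp genes, of which 9 were below 0, and 0.15 over the 13 Adam genes, beside -0.16 over all genes. The LIFR KO clones lay wholly on one side of the shPCBP1 lines for 10 members, against 17.2% of all genes, and below them for 9, against 13.2%. These calls turned on single libraries. In limma 0 members passed without CT clone 2, CT clone 3, the unaltered line or LIFR KO clone 2 (10 to 13 of them at an unadjusted p under 0.05), 1 passed without CT clone 1, FAM3C KO clone 1 or FAM3C KO clone 3, and 15 passed without LIFR KO clone 1. Over all genes these settings gave 5 to 45, 48 to 159 and 7234, in this order, against 816 with every library. The counts over all genes thus rose and fell across these settings too.

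Mmp14 (chromosome 14, 54431612 to 54445364), the gene of the pro-MMP2 activator, was at 45.2 CPM in the unaltered line and at 48.0, 50.6 and 53.8 CPM in the CT clones. It was at 40.5, 37.0 and 35.8 CPM in FAM3C KO, at 37.1, 26.3 and 25.04 CPM in LIFR KO and at 22.6 CPM in the double KO. No knockout clone reached the lowest shPCBP1 line. Log2 fold changes were -0.76 in LIFR KO and -0.39 in FAM3C KO, each with a standard error of 0.139 (adjusted p = 0.0355 and 0.349 from limma).

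Mmp28 (chromosome 11, 83440768 to 83463071), the gene of a protease made by epithelia, was at 8.69 CPM in the unaltered line and at 10.7, 15.2 and 13.6 CPM in the CT clones. The LIFR KO clones had 2.50, 1.45 and 4.12 CPM and did not overlap with shPCBP1, with a log2 fold change of -2.21 and a standard error of 0.531 (adjusted p = 0.0518 from limma). The FAM3C KO clones had 20.3, 4.80 and 26.1 CPM, so that clones 1 and 3 were above every shPCBP1 line and clone 2 below them all. The double KO, at 13.9 CPM, was within the range of shPCBP1 and above every LIFR KO clone.

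Mmp24 (chromosome 2, 155775342 to 155818366), a membrane-type protease gene, was at 3.90 CPM in the unaltered line and at 4.52, 4.53 and 3.13 CPM in the CT clones. It was at 2.97, 3.73 and 3.21 CPM in FAM3C KO, at 2.38, 1.64 and 2.19 CPM in LIFR KO and at 1.72 CPM in the double KO. The LIFR KO clones lay below all shPCBP1 lines, with a log2 fold change of -0.93 and a standard error of 0.202 (adjusted p = 0.0435 from limma), and the FAM3C KO clones overlapped with shPCBP1. Timp2 (chromosome 11, 118301069 to 118355740), the inhibitor that also assists MMP14, was at 316 CPM in the unaltered line and at 343, 358 and 378 CPM in the CT clones. It was at 332, 258 and 346 CPM in FAM3C KO, at 252, 186 and 275 CPM in LIFR KO and at 228 CPM in the double KO. Again LIFR KO was below all shPCBP1 lines and FAM3C KO overlapped with them. The log2 fold change in LIFR KO was -0.57 with a standard error of 0.152 (adjusted p = 0.0636 from limma).

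Adamts7 (chromosome 9, 90163069 to 90208071), a gene active in cartilage and vessel walls, was at 2.37 CPM in the unaltered line and at 3.88, 3.37 and 2.39 CPM in the CT clones. LIFR KO clones were at 0.919, 0.847 and 2.13 CPM, below all shPCBP1 lines but the third only just, and the double KO was at 2.17 CPM (log2 fold change in LIFR KO -1.23, standard error 0.319, adjusted p = 0.0601 from limma). FAM3C KO clones, at 4.10, 4.39 and 5.74 CPM, were above all shPCBP1 lines without passing the threshold (0.66, adjusted p = 0.524). Adamtsl4 (chromosome 3, 95676201 to 95687917), whose protein binds fibrillin microfibrils, was at 14.8 CPM in the unaltered line and at 14.4, 15.2 and 15.6 CPM in the CT clones. In FAM3C KO it was at 14.7, 11.1 and 12.8 CPM, and in LIFR KO, at 11.96, 7.53 and 7.59 CPM, it was below all shPCBP1 lines with a log2 fold change of -0.76 and a standard error of 0.174 (adjusted p = 0.0488 from limma). The shPCBP1 lines lay close together for Adamtsl4, and LIFR KO clone 1 was nearest to them.

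**Figure D2:**
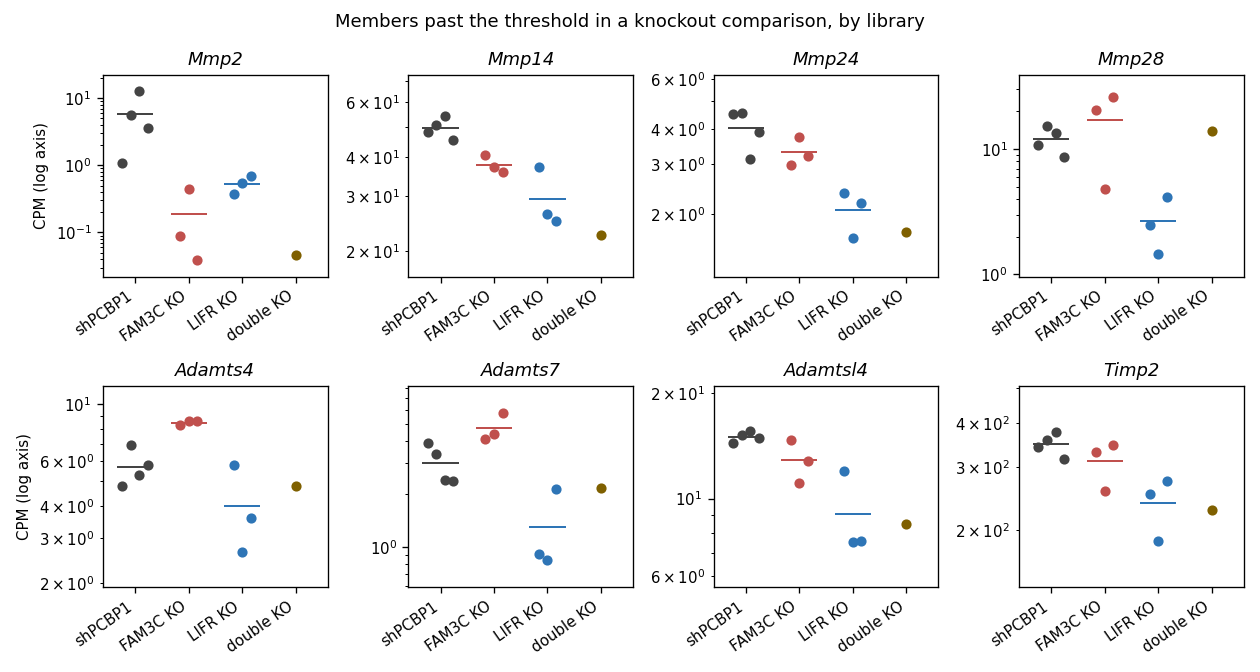
CPM (log axes that differ between panels) of the 8 members past the threshold in a comparison of the first dataset, with 1 point per library and a line at the mean of each group. All LIFR KO points lie below the shPCBP1 points for each gene but Adamts4, and all FAM3C KO points lie above the LIFR KO points for Mmp24, Mmp28, Adamts4 and Adamts7.

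Mmp15 and Adamts10 were the other tested members lower in every LIFR KO clone than in any shPCBP1 line. Mmp15, a further membrane-type protease gene, was at 1.43 CPM in the unaltered line, at 1.47, 3.92 and 3.44 CPM in the CT clones, at 1.42, 0.600 and 1.61 CPM in FAM3C KO and at 0.429, 0.458 and 1.16 CPM in LIFR KO. Its log2 fold change in LIFR KO, -1.75 with a standard error of 0.488, was just outside the threshold (adjusted p = 0.0701 from limma). Adamts10, whose protein binds fibrillin, was at 19.3 CPM in the unaltered line, at 20.4, 21.6 and 23.4 CPM in the CT clones, at 19.2, 21.4 and 15.8 CPM in FAM3C KO and at 18.7, 15.0 and 11.6 CPM in LIFR KO (-0.51, adjusted p = 0.0883, but 0.06 with the correction for GC content).

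**Figure D3:**
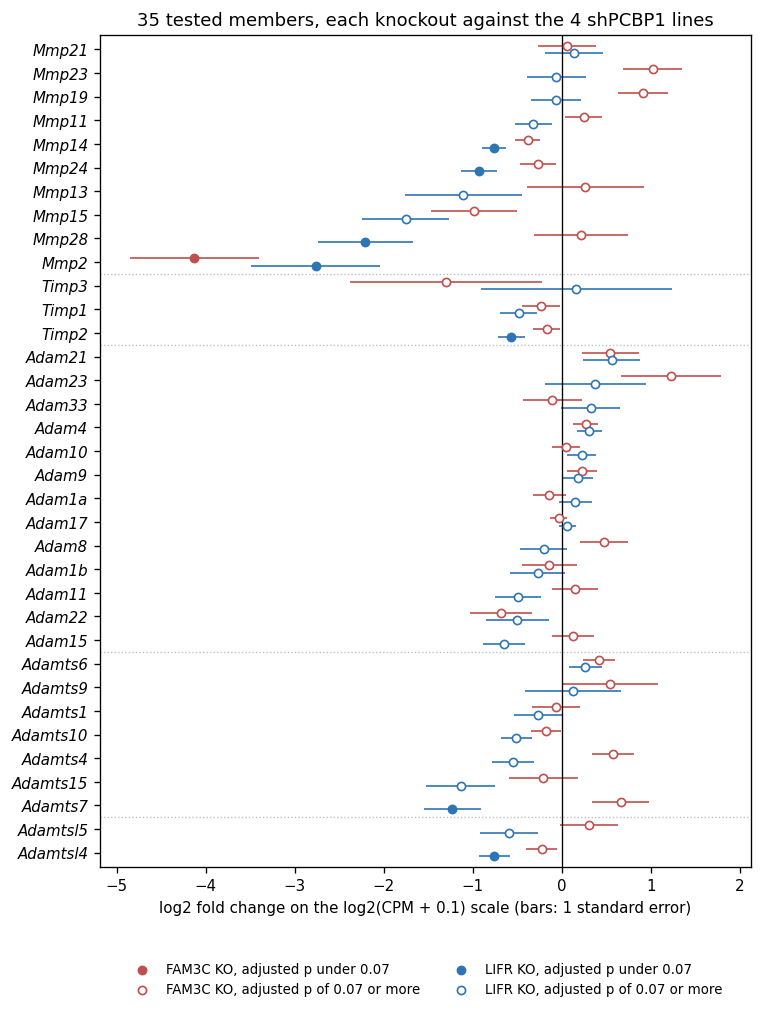
Log2 fold change of the 35 tested members in FAM3C KO and in LIFR KO against the same 4 shPCBP1 lines, grouped by family, with bars of 1 standard error and filled points for an adjusted p under 0.07. Mmp2 is farthest to the left in both, at -4.13 and -2.76, and no Adam gene has a filled point.

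GC content moved with the members in LIFR KO clones 2 and 3. Across the 35 members, which are not independent replicates, Spearman's rho of that log2 difference with GC content was -0.588 in clone 2, -0.547 in clone 3 and -0.574 in the double KO, against -0.180 in LIFR KO clone 1 and -0.255 to 0.374 in the shPCBP1 and FAM3C KO libraries. The tested members had a median GC content of 53.7%, against 49.7% for all genes tested. With each library corrected for GC content, 0 of the 35 members passed in LIFR KO (limma, 5 at an unadjusted p under 0.05, and 36 of all genes past the threshold). The corrected log2 fold changes were -2.33 for Mmp2, -1.66 for Mmp28, -0.69 for Adamts7, -0.37 for Mmp14, -0.37 for Mmp24, -0.21 for Timp2 and -0.11 for Adamtsl4, with adjusted p from 0.0754 to 0.594. Over all alternatives the adjusted p of these 7 genes lay between 6.07e-05 and 0.688. The median over the members went from -0.32 to -0.016 and that over all genes from -0.16 to -0.0012. Median-ratio rescaling of the libraries gave -0.15 over the members and 0.0025 over all genes. Adamtsl4 and Mmp14 then passed the threshold, 2 of the 35 members beside 489 of all genes. The summed CPM of the epithelial markers was also lower, at 1212 to 2092 in LIFR KO against 2466 to 3166 in shPCBP1. Log2 fold changes were -0.96 for Krt8, -0.72 for Krt18 and -0.80 for Krt19, but -0.04 for Cdh1. Of these 4 genes Krt18 alone passed the threshold (adjusted p = 0.0663 from limma). The part of the markers in the differences of the members was not tested.

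**Figure D4:**
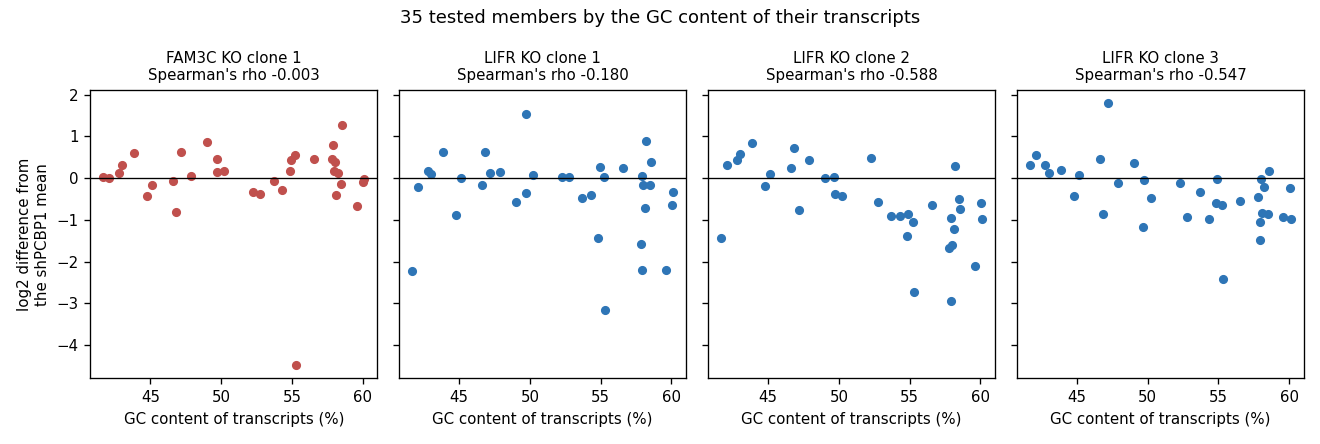
Log2 difference of the 35 tested members from the shPCBP1 mean against the GC content of their transcripts in percent, with 1 panel per library and 1 point per gene. The points fall from left to right in LIFR KO clones 2 and 3, with Spearman's rho of -0.588 and -0.547, and show no such slope in FAM3C KO clone 1.

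LIFR KO clone 1, without this trend, was also compared with the shPCBP1 lines on its own, on the assumption that it varies like the other groups. All 7 members had lower values there, which was already given, since every LIFR KO clone lay below every shPCBP1 line for them. Only the sizes in this clone are new. The log2 fold changes were -3.15 for Mmp2, -2.19 for Mmp28, -1.58 for Adamts7, -0.72 for Mmp24, -0.47 for Timp2, -0.41 for Mmp14 and -0.32 for Adamtsl4. Since this fit leaves 1 library in the LIFR KO group, no calls are drawn from it.

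The knockouts were then compared with each other. Adamts4, Adamts7 and Mmp28 passed the threshold, 3 of the 35 members against 8.28% of all genes, and all 3 were higher in FAM3C KO, against 6.83%. Adamts4 (chromosome 1, 171250421 to 171260637), the gene of an aggrecanase, was at 5.80 CPM in the unaltered line and at 4.80, 6.90 and 5.27 CPM in the CT clones. In FAM3C KO its values were close together at 8.27, 8.55 and 8.54 CPM, above every other library of the dataset, and in LIFR KO it was at 5.79, 2.66 and 3.602 CPM. The log2 difference between FAM3C KO and LIFR KO was 1.13 for Adamts4, 1.89 for Adamts7 and 2.42 for Mmp28, with standard errors of 0.253, 0.341 and 0.568 (adjusted p = 0.0420, 0.0354 and 0.0441 from limma). An exact permutation test of 3 clones against 3 gave p = 0.1 for each, the smallest it allows. Groups without overlap were found for 8 of the 35 members (22.9%), against 22.8% of all genes. All 8 were higher in FAM3C KO, beside 16.1% of all genes higher and 6.73% lower. With the GC correction 0 of the 35 passed in limma (7 at an unadjusted p under 0.05, and 88 of all genes past the threshold). No member passed without FAM3C KO clone 1, FAM3C KO clone 3 or LIFR KO clone 2 (0 members, 7 to 11 at an unadjusted p under 0.05), 1 passed without the unaltered line or FAM3C KO clone 2, 6 without LIFR KO clone 3 and 17 without LIFR KO clone 1. Over all genes these settings gave 1 to 101, 65 to 376, 1467 and 6673, in this order, against 1045 with every library.

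Among the collagenase and stromelysin genes, Mmp13, Mmp10, Mmp3, Mmp12 and Mmp27 lie together on chromosome 9 of GRCm38 within 309 kb, from 7272514 to 7581885. Of these Mmp13 alone passed the filter of a mean of 0.5 CPM. It was at 2.92, 4.72 and 2.96 CPM in FAM3C KO, within the range of the shPCBP1 lines, and at 0.536, 0.998 and 3.602 CPM in LIFR KO, of which the first 2 were below that range. Its log2 fold changes, 0.26 and -1.11, did not pass the threshold (adjusted p = 0.959 and 0.236 from limma). Mmp10 was at 0.121 to 0.687 CPM in shPCBP1, at 0.192 to 0.354 CPM in FAM3C KO and at 0.0416 to 0.172 CPM in LIFR KO. Mmp3, Mmp12 and Mmp27 were listed in the second dataset only, at the value for no reads in 4, 4 and 3 of its 4 libraries, so neighbours in this row had unlike levels.

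Promoters were read from RefSeq (GRCm38.p6, from 250 bases before to 50 after the start site), where 36 of the 54 members matched with 40 promoters. They were searched on both strands for TGACTCA or its reverse complement TGAGTCA, the AP-1 site, and for TTCNNNGAA, the core that STAT proteins bind, since LIFR signals through STAT3. The AP-1 site was found in 6 of the 40 promoters (15.0%), against 5.2% of 32851 promoters, namely in Mmp3, Mmp10, Mmp12, Mmp13, Adam19 and Adam1b. The STAT core was in 3 of the 40 (7.5%), against 8.3%, in Adam21 and in 2 overlapping promoters of Mmp23. Mmp2, Adamts4 and Adamts7 were among the members without a matched promoter, so theirs were not searched for either motif. A match is of letters in this window and is no measure of binding. The promoters of the chromosome 9 genes are shown since the site begins at a similar distance from their start sites, at -35 in Mmp13 (chr9:7272264-7272563), -63 in Mmp10 (chr9:7502092-7502391), -46 in Mmp3 (chr9:7445572-7445871) and -44 in Mmp12 (chr9:7347124-7347423), all on the plus strand. Mmp12 has a further promoter in the table, without either motif, which is not shown. That of Mmp23 (chr4:155653241-155653540, minus strand) is shown for the STAT core at -98 in a gene with unlike levels in the knockouts, and capitals mark the motifs.
Mmp13: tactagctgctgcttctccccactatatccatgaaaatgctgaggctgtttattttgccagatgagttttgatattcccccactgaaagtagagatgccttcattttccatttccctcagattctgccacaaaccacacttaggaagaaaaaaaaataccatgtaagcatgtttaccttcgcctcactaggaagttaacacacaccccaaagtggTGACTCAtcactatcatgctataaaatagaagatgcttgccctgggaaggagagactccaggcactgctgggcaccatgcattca
Mmp10: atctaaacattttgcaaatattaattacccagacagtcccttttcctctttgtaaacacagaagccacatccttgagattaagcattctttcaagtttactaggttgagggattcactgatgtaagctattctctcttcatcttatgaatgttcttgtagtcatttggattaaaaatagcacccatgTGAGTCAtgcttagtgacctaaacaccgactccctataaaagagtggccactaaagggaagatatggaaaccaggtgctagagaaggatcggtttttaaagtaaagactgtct
Mmp3: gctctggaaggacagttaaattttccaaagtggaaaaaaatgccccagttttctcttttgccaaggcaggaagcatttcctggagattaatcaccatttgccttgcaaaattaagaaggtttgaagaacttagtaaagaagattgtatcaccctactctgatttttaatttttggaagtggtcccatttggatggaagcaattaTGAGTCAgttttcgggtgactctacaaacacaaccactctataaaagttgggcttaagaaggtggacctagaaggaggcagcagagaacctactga
Mmp12: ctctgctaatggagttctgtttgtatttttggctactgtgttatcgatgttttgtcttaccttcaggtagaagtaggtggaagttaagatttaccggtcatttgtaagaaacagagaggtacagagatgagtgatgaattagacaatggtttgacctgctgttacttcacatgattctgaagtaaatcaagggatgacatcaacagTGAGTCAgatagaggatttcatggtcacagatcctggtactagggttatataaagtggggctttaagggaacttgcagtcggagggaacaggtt
Mmp23: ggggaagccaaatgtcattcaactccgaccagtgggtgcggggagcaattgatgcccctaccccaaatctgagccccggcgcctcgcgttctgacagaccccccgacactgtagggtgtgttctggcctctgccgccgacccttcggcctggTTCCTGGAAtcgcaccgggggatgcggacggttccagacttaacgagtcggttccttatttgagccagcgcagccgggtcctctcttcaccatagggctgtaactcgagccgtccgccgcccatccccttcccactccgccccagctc

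Of the remaining Mmp genes, Mmp11 (stromelysin 3) was at 10.1 to 12.2 CPM in shPCBP1, 11.2 to 15.5 CPM in FAM3C KO and 7.15 to 13.2 CPM in LIFR KO. Mmp21 was at 0.344 to 0.707 CPM over these groups. Mmp17, a membrane protease gene below the filter, was at 0.437 to 0.653 CPM across shPCBP1 and at 0.268, 0.0832 and 0.429 CPM in LIFR KO, below each shPCBP1 line, and is named after its values were seen. Mmp9, the gene of gelatinase B, was listed in the second dataset alone, at 0.0178 CPM and the value for no reads in NMuMG and at 0.0359 and 0.0186 CPM in shPCBP1, all below the value of 3 reads.

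Timp1 and Timp3 did not pass the threshold in either knockout. Timp1, a soluble inhibitor, was at 11.1 CPM in the unaltered line, at 10.4, 11.9 and 10.6 CPM in the CT clones, at 8.41, 11.4 and 8.49 CPM in FAM3C KO and at 11.3, 7.36 and 5.75 CPM in LIFR KO, where clones 2 and 3 were the low ones (log2 fold change -0.49, adjusted p = 0.131 from limma). Timp3 was at 1.16, 0.0400 and 3.91 CPM in FAM3C KO and at 3.27, 3.54 and 1.10 CPM in LIFR KO. The range of the shPCBP1 lines covered all of these Timp3 values except that of FAM3C KO clone 2, which was close to the value for no reads.

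Adam10 was at 96.2 CPM in the unaltered line, at 109.5, 104 and 119 CPM in the CT clones, at 106, 106 and 118 CPM in FAM3C KO, at 92.8, 132 and 157 CPM in LIFR KO and at 138 CPM in the double KO. It was above the shPCBP1 lines in LIFR KO clones 2 and 3 and below them in clone 1, and its transcript has a GC content of 42.1%, near the lowest among the members. Adam17 was at 66.3 CPM in the unaltered line, at 63.1, 65.1 and 71.8 CPM in the CT clones, at 59.1, 72.7 and 63.3 CPM in FAM3C KO and at 67.0, 70.6 and 70.6 CPM in LIFR KO. The log2 fold changes of Adam17 were -0.04 in FAM3C KO and 0.06 in LIFR KO with a standard error of 0.0961, and those of Adam10 0.04 and 0.22 with 0.1599, none past the threshold. That of Adam10 in LIFR KO was -0.01 with the correction for GC content and -0.20 with clone 1 only. Adam15, a membrane-anchored protease gene, was at 36.9 to 50.0 CPM across shPCBP1 and at 46.2, 22.6 and 21.3 CPM in LIFR KO, where clone 1 was within the shPCBP1 range and clones 2 and 3 below it. The other 8 Adam genes tested, from Adam1a to Adam33, had log2 fold changes of -0.68 to 0.54 in FAM3C KO and -0.50 to 0.56 in LIFR KO, none past the threshold. Adam19, the gene of a sheddase of neuregulins, was below the filter and is named after its values were seen. It was at 0.250 CPM in the unaltered line, at 1.07, 0.480 and 0.369 CPM in the CT clones, at 0.0443, 0.120 and 0.0384 CPM in FAM3C KO and at the value for no reads in each LIFR KO clone and the double KO. Its knockout values were all below those of shPCBP1, and with no filter on low values it passed the threshold in LIFR KO.

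Adamts1, which cuts versican and aggrecan, was at 3.49 CPM in the unaltered line, at 3.86, 2.87 and 2.68 CPM in the CT clones, at 3.54, 1.88 and 4.23 CPM in FAM3C KO and at 2.47, 2.41 and 3.09 CPM in LIFR KO, and the groups overlapped. Adamts14, a procollagen N-proteinase gene below the filter, was at 0.187 CPM in the unaltered line, at 0.107, 0.121 and 0.0687 CPM in the CT clones, at 1.11, 0.240 and 0.115 CPM in FAM3C KO and at 0.0536, 0.0832 and 0.172 CPM in LIFR KO. Its high value was that of FAM3C KO clone 1 alone. Adamts15, the gene of a versican-cutting protease, was at 6.12 to 16.9 CPM across shPCBP1 and at 3.701, 3.87 and 6.69 CPM in LIFR KO (-1.14, adjusted p = 0.0899 from limma). Adamts9 was at 3.59 to 6.95 CPM across shPCBP1 and at 15.1, 5.25 and 2.25 CPM in LIFR KO, on both sides of the shPCBP1 lines.

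The second dataset compares shPCBP1 with NMuMG and so asks which members change with the knockdown of PCBP1. Of the 25 members tested, 21 passed the threshold, against 80.1% of all genes, 12 of them higher in shPCBP1 against 42.1% and 9 lower against 38.0%. Since most genes passed, sizes were also counted, and 13 of the 25 members (52.0%) also reached a fold change of 1.5, against 31.1% of all genes. By family, all 8 Mmp genes tested passed (3 higher, 5 lower), as did 5 of 6 Adamts genes (4 higher, 1 lower), 5 of 7 Adam genes (3 higher, 2 lower), both Adamtsl genes and 1 of 2 Timp genes. Groups of 2 allow no exact permutation p below 0.333, and the other 27 members had means of at most 0.456 CPM and were not tested.

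Mmp2 was at the value for no reads in both NMuMG libraries and at 2.17 and 2.37 CPM in shPCBP1, at least 39.9-fold higher with NMuMG set to 3 reads per library (adjusted p = 1.62e-09 from limma). Adamts4 was at 0.283 and 0.170 CPM in NMuMG and at 2.94 and 2.81 CPM in shPCBP1, a log2 fold change of 3.21 with a standard error of 0.188. Adamts7 was at 0.106 and 0.0567 CPM in NMuMG and at 1.09 and 1.52 CPM in shPCBP1, a log2 fold change of 2.95 with 0.220. All 3 were near the limit of detection in NMuMG or a few times above it, and none of their groups overlapped. Mmp24 rose from 0.272 and 0.177 CPM in NMuMG to 1.64 and 1.45 CPM in shPCBP1, a log2 fold change of 2.35 with 0.191 (adjusted p = 5.87e-07 from limma, the largest of these genes).

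Adam8, a sheddase gene known from leukocytes, was at 4.07 and 3.71 CPM in NMuMG and at 9.48 and 8.98 CPM in shPCBP1 (log2 fold change 1.23). Adamts10 was at 1.43 and 1.62 CPM in NMuMG and at 3.35 and 3.34 CPM in shPCBP1 (1.09). Adamtsl4 was at 2.32 and 2.00 CPM in NMuMG and at 4.44 and 4.55 CPM in shPCBP1 (1.03). For these genes the 2 libraries of a group lay far closer to each other than to the other group. Adam15 was at 10.47 and 10.4 CPM in NMuMG and at 18.02 and 18.4 CPM in shPCBP1 (log2 fold change 0.80). Adamts6, a close relative of Adamts10, was at 2.97 and 2.90 CPM in NMuMG and at 5.05 and 4.92 CPM in shPCBP1 (0.74). These are moderate increases in genes that NMuMG already expressed. Adam17 was at 29.6 and 30.2 CPM in NMuMG and at 40.6 and 40.9 CPM in shPCBP1 (0.45), while Adam10, at 38.1 and 39.6 CPM and 39.5 and 42.2 CPM, overlapped between the groups (adjusted p = 0.115 from limma). Timp2 rose by 0.20 on the log2 scale, from 253 and 251 CPM in NMuMG to 289.6 and 291 CPM in shPCBP1, and Mmp15 by 0.55.

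Lower levels in shPCBP1 were found for 9 members. Adamtsl5, an ADAMTS-like gene, was at 15.2 and 15.2 CPM in NMuMG and at 3.48 and 3.29 CPM in shPCBP1, a log2 fold change of -2.14 with a standard error of 0.0757. Mmp13 was at 5.58 and 6.24 CPM in NMuMG and at 2.63 and 2.46 CPM in shPCBP1 (-1.18). Adamts15 was at 11.7 and 11.6 CPM in NMuMG and at 5.73 and 5.16 CPM in shPCBP1 (-1.09). In each of these the libraries of a group were close together and the groups far apart. Mmp19 was at 1.81 and 1.49 CPM in NMuMG and at 0.840 and 0.879 CPM in shPCBP1 (log2 fold change -0.86). Adam23 was at 3.49 and 3.02 CPM in NMuMG and at 1.97 and 2.31 CPM in shPCBP1 (-0.58). Mmp14 was at 27.7 and 29.3 CPM in NMuMG and at 23.6 and 23.7 CPM in shPCBP1 (-0.27, adjusted p = 1.37e-04 from limma), so the gene of the pro-MMP2 activator was lower where Mmp2 was higher. Mmp11 was at 7.11 and 6.05 CPM in NMuMG and at 5.34 and 5.57 CPM in shPCBP1 (-0.26). Mmp28 was at 10.7 and 9.89 CPM in NMuMG and at 8.95 and 9.30 CPM in shPCBP1 (-0.17). Adam9 was at 41.9 and 43.0 CPM in NMuMG and at 39.2 and 39.4 CPM in shPCBP1 (-0.11). These last 3 changes were small, and those of Mmp11 and Mmp28 passed the threshold under some alternatives and not under others (adjusted p up to 0.236 and 0.230 in limma).

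Timp1, at 2.30 and 2.19 CPM in NMuMG and 2.08 and 2.42 CPM in shPCBP1, and Adamts1, at 0.974 and 1.07 CPM and 1.11 and 1.07 CPM, overlapped between the groups and did not pass the threshold. Timp3 was at 0.0178 and 0.0944 CPM in NMuMG and at 0.0359 and 0.0925 CPM in shPCBP1, with a library near the limit of detection in each group. Adamts14 was at the value for no reads in NMuMG and at 0.0539 and 0.0555 CPM in shPCBP1, about the value of 3 reads. Adam11, the gene of an inactive ADAM of the nervous system, was below the filter but went from 0.0532 and 0.0190 CPM in NMuMG to 0.771 and 0.887 CPM in shPCBP1, and is named after its values were seen.

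**Figure D5:**
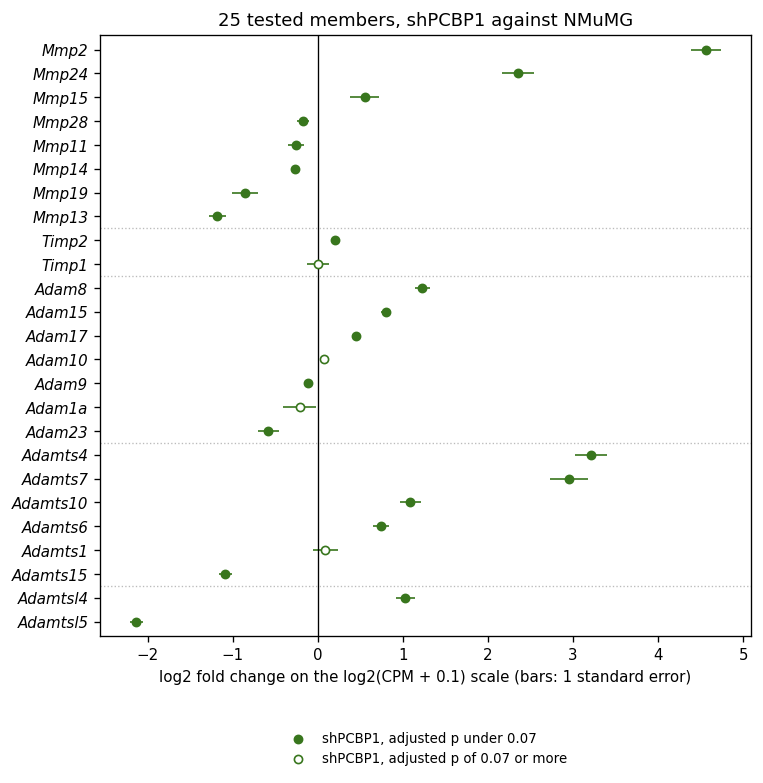
Log2 fold change of the 25 tested members in shPCBP1 against NMuMG in the second dataset, grouped by family, with bars of 1 standard error and filled points for an adjusted p under 0.07. Mmp2 at 4.56 (a value that depends on the pseudocount, since NMuMG had no reads) and Adamts4 at 3.21 are farthest to the right and Adamtsl5 at -2.14 farthest to the left.

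The datasets share no library, so the members can be set side by side across them. Of the 7 members lower in LIFR KO, 5 (Mmp2, Mmp24, Adamts7, Adamtsl4 and Timp2) were higher in shPCBP1 than in NMuMG and 2 (Mmp14 and Mmp28) were lower. Of the 701 genes lower in LIFR KO, 654 were tested in the second dataset, where 54.0% were higher in shPCBP1 and 29.1% lower. Mmp2 alone passed the threshold in FAM3C KO, in LIFR KO and in the second dataset.

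Genes that activate, inhibit or traffic these proteases were followed as a list, of which 17 were tested in the first dataset and 0 passed the threshold in FAM3C KO or LIFR KO (limma, with 2 and 11 at an unadjusted p under 0.05). Their median log2 fold change was -0.14 in FAM3C KO and -0.37 in LIFR KO, beside -0.01 and -0.16 over all genes. In the second dataset 5 of 16 were higher in shPCBP1, against 42.1% of all genes, and 10 lower, against 38.0%. Plau, the gene of urokinase, which activates plasminogen, was at the value for no reads and 0.0190 CPM in NMuMG and at 6.54 and 6.82 CPM in shPCBP1. Plau rose far beyond the spread of the libraries. Tspan5, the gene of a tetraspanin partner of ADAM10, was at 13.8 and 14.5 CPM in NMuMG and at 15.5 and 17.1 CPM in shPCBP1, a smaller rise. Tspan33, Tspan15 and Tspan14, which encode other such partners, fell by 2.85, 1.32 and 1.28 on the log2 scale, while Adam10 itself did not pass the threshold.

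Membrane substrates of the ADAM sheddases formed the other list. Of 14 tested in the first dataset, 3 were lower in LIFR KO, against 5.55% of all genes, and 0 passed in FAM3C KO, against 0.309% (limma, 0 at an unadjusted p under 0.05). Areg, the gene of the growth factor amphiregulin that ADAM17 releases, was at 27.8 CPM in the unaltered line, at 26.6, 29.2 and 34.4 CPM in the CT clones, at 31.2, 36.4 and 24.4 CPM in FAM3C KO and at 14.4, 15.6 and 20.2 CPM in LIFR KO, where clone 1 was lowest (log2 fold change -0.82, adjusted p = 0.0390 from limma). Notch1, a receptor that ADAM10 cuts, was at 28.0, 12.3 and 25.9 CPM in LIFR KO against 40.6 to 50.6 CPM in shPCBP1 (-1.09). The proteoglycan gene Sdc1 was at 129, 78.2 and 111 CPM in LIFR KO against 143 to 184 CPM in shPCBP1 (-0.66). For all 3 genes the groups did not overlap. Areg and Sdc1 were also higher in FAM3C KO than in LIFR KO, by 0.87 and 0.75 on the log2 scale. In the second dataset 8 of 14 were higher in shPCBP1 and 6 lower, beside the same 42.1% and 38.0% of all genes. Areg, Cdh2 (N-cadherin) and Btc (betacellulin) rose by 1.57, 1.42 and 1.26 on the log2 scale, and Notch1, Notch2 and Cdh1 (E-cadherin) fell by 0.96, 0.68 and 0.65. The mesenchymal markers moved with these changes, since all 7 were higher in shPCBP1, with a sum of 535 to 557 CPM in NMuMG and 1315 to 1350 CPM in shPCBP1, and their part in the changes of the members was not tested.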

How the data were processed

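The methods of the study describe rRNA-depleted directional libraries sequenced on a NovaSeq, and they give no separate protocol for the older second dataset. Per the labels and methods, the authors aligned reads to GRCm38 with Bowtie2 and processed them in Partek Flow, with DESeq2 for their own statistics. They deposited CPM per gene, in which the lowest value of a library stands for no reads. The second deposited table also holds group means and a fold ratio between them, which were not used. Steps of 1 read could not be recovered from the CPM well enough for a count test.

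Here log2(CPM + 0.1) was analysed by limma 3.58.1 (R 4.3.3) with an intensity trend, for genes whose mean reached 0.5 CPM over the fitted libraries, with Benjamini-Hochberg adjusted p under 0.07 over all genes as the threshold. The 3 replicated groups of the first dataset were fitted together without the double KO, and the second dataset apart, since the tables were normalized separately. GC content and lengths came from GENCODE M21. The correction for GC content was a loess fit per library with a span of 0.3. Exact permutation tests were two-sided (scipy 1.17.1, Python 3.11.15). The fits were tested on simulated data.

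Members, lists and tests were chosen with earlier results of these data known. Values per library are given for Mmp2, Mmp9, Mmp14, Timp1, Timp2, Timp3, Adam10, Adam17, Adamts1 and Adamts14, for members past the threshold in the first dataset, for members there whose knockout clones lie on one side of every shPCBP1 line with a group mean of at least 1 CPM, and for the 10 members up and 10 down with the largest change in the second dataset that passed with at least 1 CPM in a group. From the 2 further lists, genes past the threshold in the first dataset and the 3 up and 3 down with the largest change in the second are named. 1 item is not reported here.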

Additional observations from a re-analysis of the deposited data

Results flagged for a closer look

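Adamts5, an aggrecanase gene, had 0.686 CPM in the unaltered line and 0.0213, 0.0404 and 0.0344 CPM in the 3 CT clones, where a gap of this size relative to the range of the group is past the 95% critical value of Dixon's test. The 3 CT values are those libraries' values for no reads, so the differences between them reflect depth alone. LIFR KO clone 3 had 0.472 CPM, so the transcript was not limited to the unaltered line. Adamts5 was the only one past this value of 41 members tested in this way, and chance alone gives about 1 in 20. The log2 difference between FAM3C KO and LIFR KO was tested directly and was 1.13 for Adamts4, 1.89 for Adamts7 and 2.42 for Mmp28, higher in FAM3C KO in all clones of each. After correction for GC content these were 0.74, 1.39 and 1.92, with adjusted p of 0.0842, 0.123 and 0.123 from limma, and over all alternatives their adjusted p ranged from 3.85e-04 to 0.208.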

How the results depend on the processing

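Where counts of members moved by over 1.5 times, the cause was not tested. In FAM3C KO the 1 member past the threshold became 0 with a pseudocount or filter of 1 CPM or an adjusted p under 0.05. It was 0 with the replicate block, with or without GC correction, 2 with that correction only and 5 with the 2 groups fitted alone. Of all genes 39 passed in the reported fit, 41 with that pseudocount, 21 with that filter and 15 with the block. They were 4 with block and GC correction, 253 with the GC correction and 1048 with the 2 groups alone. In LIFR KO the 7 became 2 with median-ratio rescaling, 3 at an adjusted p under 0.05 and 1 with the 2 groups alone. They became 0 with the replicate block, the GC correction or both. Of all genes 816 passed in the reported fit, 489 with the rescaling and 35 with the 2 groups alone. Those were 10 with the block, 36 with the GC correction and 0 with both. The 3 between the knockouts became 0 with the block, the GC correction, both, or the 2 groups alone. Of all genes 1045 passed there in the reported fit, 88 with the GC correction and 0 in the other settings. Where 0 members passed here, 5 to 13 members had an unadjusted p under 0.05 in limma. Leaving out 1 library of the first dataset gave 0 to 2, 0 to 15 and 0 to 17 members, beside 3 to 359, 5 to 7234 and 1 to 6673 of all genes. In the second dataset the 21 (9123 of all genes) became 32 with no filter on low values (10167 of all genes). They became 13 with a required fold change of 1.5 (3543) and 22 with the replicate block (9235). Members without overlap numbered 8 to 16, 10 to 16 and 8 to 18 with 1 library left out (16 without FAM3C KO clone 2, 16 without LIFR KO clone 1, and 18 without either, in this order), and 3 in LIFR KO with the GC correction. Smaller groups overlap less readily for any gene, and the shares over all genes are not given here. These rises are therefore no result about the members. Replicate numbers do not pair the samples, since deviations of same-numbered libraries had r from -0.18 to 0.15 (first dataset) and 0.051 (second dataset), and the block is given for these counts only. None of the 32 fold changes past the threshold changed sign under an alternative. Some that had not passed did, such as those of Adam10 between the knockouts (-0.18, but 0.25 with clone 1 only), Adam10 in FAM3C KO (0.04, but -0.01 with the block), Adam15 in LIFR KO (-0.65, but 0.06 with clone 1 only) and Timp1 in LIFR KO (-0.49, but 0.04 with clone 1 only). The alternative in which each library's lowest value was subtracted was chosen after seeing the data, and Mmp15 then also passed in LIFR KO. Depth limits members under about 0.187 CPM.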
